A study of Homo sapiens with 6 samples.

Results

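The 57 genes described here encode enzymes and remodelers that modify chromatin outside the core Polycomb complexes. They comprise 15 histone methyltransferases, 9 histone demethylases, 7 histone deacetylases, 11 subunits of the SWI/SNF remodelers, 5 CHD remodelers, 6 enzymes that add or oxidise DNA methylation and 4 histone acetyltransferases. The genes were taken from a list of symbols that was chosen with earlier results of these data known. Each was matched to every probe set annotated with that symbol alone, and all 57 of 57 were found among the 18132 genes of the arrays. They were read out by 219 probe sets, between 1 and 11 per gene, and a gene's value is the mean of its probe sets on each array.

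The PCGF1-shRNA group consists of 3 arrays of U87 cells transfected with a lentivirus that encodes a short hairpin RNA against PCGF1. The NC group consists of 3 arrays of U87 cells that received the negative control lentivirus, so both groups carry a lentivirus and both grew in the same serum-containing DMEM. U87 is an established human glioma line, and nothing in the labels says whether either kind of cell was a clone or a pool. The labels name biological replicates 1 to 3 but no separate cultures, so the p-values reflect only how far these arrays scatter, and that scatter may be technical. Every PCGF1-shRNA sample name also carries T0 and every NC name T1, and what these stand for cannot be told apart from the knockdown.

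Each value is a log2 signal from which the authors' table has already taken the probe set's median over the 6 arrays. Such values show differences between arrays and carry no level, so neither the rank of the genes by abundance nor the presence of glioma markers in these cells could be checked. PCGF1, the targeted gene, had -0.27, -0.13 and -0.19 in the PCGF1-shRNA arrays, against 0.13, 0.27 and 0.29 in the NC arrays, and lay at 0.743 of the NC signal (limma, adjusted p = 0.00410). An exact permutation test over the arrays gave p = 0.1, the smallest that 3 against 3 can reach. Of 22 markers of leukocytes, endothelium, epithelium and astroglial or glioma cells, 1 rose and 0 fell at an adjusted p under 0.05 by limma. This is 4.55%, against 11.0% of all genes. The riser was the secreted glycoprotein CHI3L1 (log2 fold change 0.46). Of the 22 markers 3 had an unadjusted p under 0.05 by limma, as did 26.6% of all genes. The arrays hold bulk RNA, in which fewer cells of a type and less RNA per cell cannot be told apart.

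PCGF1 belongs to the variant Polycomb complex PRC1.1, which places ubiquitin on histone H2A and is brought to unmethylated CpG-rich DNA by the CXXC zinc finger of its subunit KDM2B. The enzymes described here act on the same regulatory DNA by other means. Trithorax-type methyltransferases mark histone H3 lysine 4 at active promoters and enhancers, SWI/SNF remodelers move nucleosomes and oppose Polycomb repression, and deacetylases and DNA methyltransferases help to silence genes.

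In the PCGF1-shRNA arrays 6 of the 57 genes rose, 1 fell and 50 did not pass the test (limma, Benjamini-Hochberg adjusted p under 0.05 over all 18132 genes). The risers were the SWI/SNF ATPases SMARCA2 and SMARCA4, the CHD remodelers CHD3 and CHD7, the 5-methylcytosine dioxygenase TET2 and the histone H3 lysine 36 methyltransferase NSD1. The gene that fell was ARID2, a subunit found only in the PBAF form of SWI/SNF. Across all genes tested 11.0% were called, 6.36% as higher and 4.63% as lower, and the 12.3% called among the chromatin genes lies near that background. The count of risers depended on single arrays. It was 0 by limma without PCGF1-shRNA replicate 1, PCGF1-shRNA replicate 3 or NC replicate 2. In those fits 14, 14 and 16 genes had a positive value at an unadjusted p under 0.05. The count was 2 without NC replicate 1, 1 without NC replicate 3 and 5 without PCGF1-shRNA replicate 2. Of the 6 risers only CHD3 kept its call without NC replicate 1, and only NSD1 without NC replicate 3. Without PCGF1-shRNA replicate 2 only SMARCA2, CHD3 and TET2 kept theirs. The remaining genes in these counts were not called with all arrays. With 1 array left out, the share called over all genes was also lower, between 5.40% and 7.73%. ARID2 was not called without NC replicate 2. The changes were small, with log2 fold changes between -0.29 for ARID2 and 0.23 for TET2.

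Of the 57 genes, 37 had a positive log2 fold change, a share of 64.9% against 46.6% of all genes. The median was 0.04 for the chromatin genes and -0.01 for all genes. On single arrays the median of the 57 genes was 0.04, 0.01 and 0.03 in the PCGF1-shRNA samples, against -0.02, -0.04 and -0.02 in the NC samples. The same median over all genes stayed between -0.00467 and 0.00721 on the 6 arrays. The groups did not overlap for 25 of the 57 genes, which is 43.9% where all genes gave 32.7%. Of these, 19 lay higher and 6 lower in the PCGF1-shRNA arrays, where 17.1% of all genes lay higher and 15.5% lower. An unadjusted p under 0.05 by limma was reached by 22 of the 57 genes and by 26.6% of all genes. The list was chosen with earlier results of these data known, and these shares are given without a test.

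**Figure D1:**
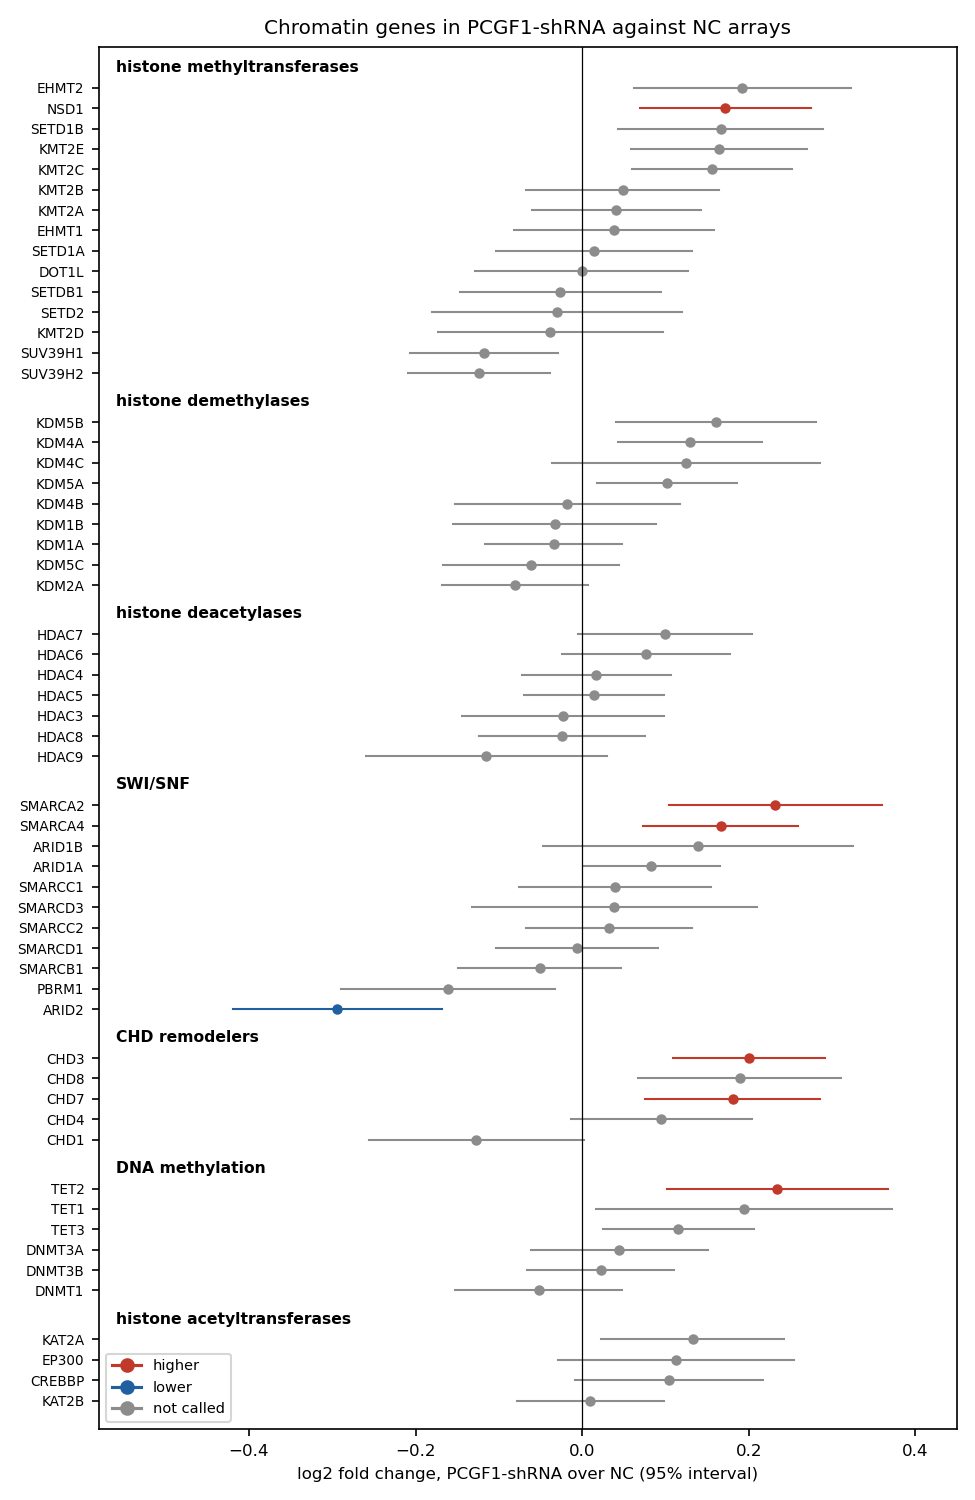
Log2 fold change of each of the 57 chromatin genes, PCGF1-shRNA over NC, on the horizontal axis, with 95% intervals from limma, grouped by class and sorted within each class. Red marks the 6 genes called higher, blue the 1 called lower and grey the 50 not called, and no gene lies beyond -0.29 or 0.23.

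The 11 SWI/SNF subunits held 3 of the 7 called genes, which is 27.3% of the class against 11.0% of all genes. In a wider list described below, 16 further SWI/SNF genes held 1 called gene, or 6.25%, which fell. SWI/SNF remodelers use the energy of ATP to slide or evict nucleosomes, and each complex contains either SMARCA4 or SMARCA2 as its motor. SMARCA2 had 0.16, 0.06 and 0.14 in the PCGF1-shRNA arrays, against -0.22, -0.06 and -0.06 in the NC arrays. NC replicate 1 was the lowest, and the groups did not overlap. SMARCA2 rose by 0.23 on the log2 scale (SE 0.06, 95% interval 0.10 to 0.36, adjusted p = 0.0361 by limma), or 1.17-fold, with all 8 of its probe sets higher, between 0.18 and 0.29. SMARCA4 had 0.09, 0.05 and 0.11 in the PCGF1-shRNA arrays, against -0.08, -0.05 and -0.12 in the NC arrays, again without overlap. It rose by 0.17 (SE 0.04, 95% interval 0.07 to 0.26, adjusted p = 0.0383 by limma), or 1.12-fold, and all 6 of its probe sets were higher, between 0.12 and 0.23. Both calls were near the threshold. Leaving out any single array ended the SMARCA4 call (adjusted p 0.0581 to 0.122). The SMARCA2 call was lost without each array except PCGF1-shRNA replicate 2 (adjusted p 0.0619 to 0.108).

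ARID2 and PBRM1, found in PBAF and not in BAF, had negative log2 fold changes, and ARID2 alone of the pair passed the test. ARID2, the DNA-binding subunit of PBAF, had -0.26, -0.14 and -0.11 in the PCGF1-shRNA arrays, against 0.06, 0.19 and 0.13 in the NC arrays. Each PCGF1-shRNA array lay below each NC array. ARID2 fell by 0.29 on the log2 scale (SE 0.05, 95% interval -0.42 to -0.17, adjusted p = 0.0141 by limma), to 0.816 of the NC signal, and all 3 of its probe sets were lower. This call was lost without NC replicate 2 (adjusted p = 0.0518) and held without any other single array. PBRM1, the bromodomain protein of the same complex, had -0.03, -0.10 and -0.05 in the PCGF1-shRNA arrays, against 0.05, 0.22 and 0.04 in the NC arrays. The groups did not overlap and all 4 probe sets were lower, but the log2 fold change of -0.16 did not pass (SE 0.06, adjusted p = 0.107 by limma).

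The ARID subunits of BAF had positive log2 fold changes that did not pass. ARID1A, a DNA-binding subunit of BAF, had 0.05, 0.05 and 0.07 in the PCGF1-shRNA arrays, against -0.04, -0.02 and -0.02 in the NC arrays (log2 fold change 0.08, adjusted p = 0.185 by limma). Its alternative ARID1B had 0.28, -0.03 and 0.02 in the PCGF1-shRNA arrays, against -0.02, -0.01 and -0.12 in the NC arrays, so that its log2 fold change of 0.14 rests largely on PCGF1-shRNA replicate 1. The mean of ARID2 and PBRM1 minus the mean of ARID1A and ARID1B was -0.31, -0.13 and -0.12 in the PCGF1-shRNA arrays, against 0.09, 0.22 and 0.15 in the NC arrays. This contrast was formed after the values were seen, and it is given without a test. It leaves out the PBAF genes PHF10 and BRD7, which had positive log2 fold changes of 0.14 and 0.02. On the BAF side it leaves out DPF1, DPF2, DPF3 and SS18, which had negative values of -0.01, -0.12, -0.02 and -0.01. Of the 16 SWI/SNF genes of the wider list, 7 were positive and 9 negative. The shared core subunits SMARCB1, SMARCC1, SMARCC2, SMARCD1 and SMARCD3 had log2 fold changes between -0.05 and 0.04 with overlapping groups throughout.

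**Figure D2:**
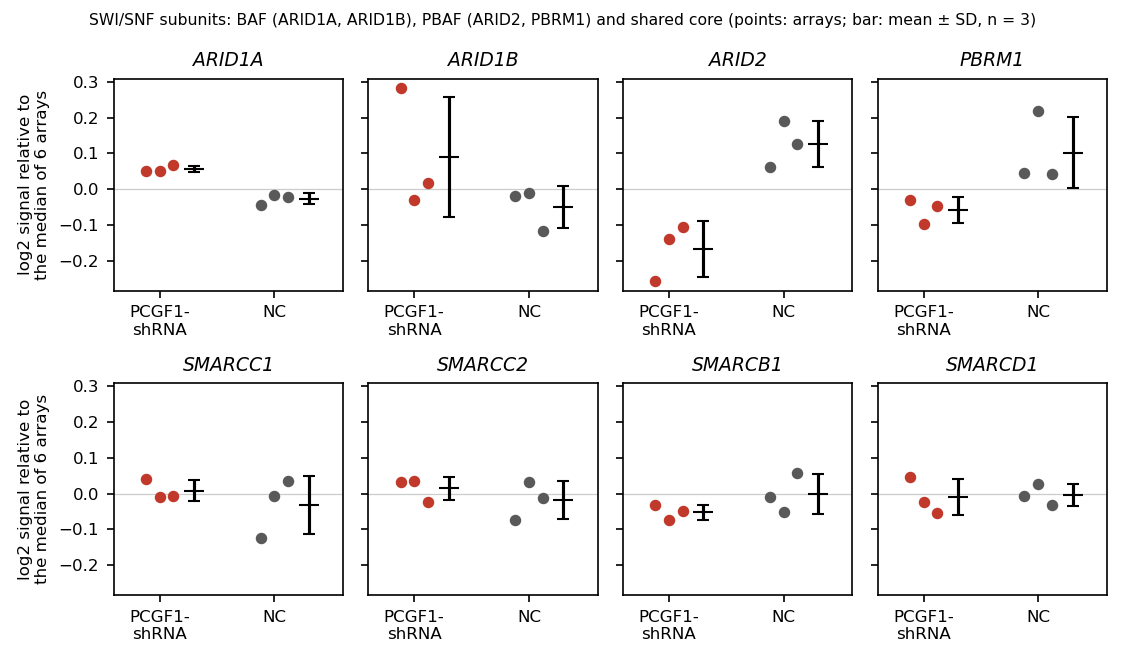
Relative log2 signal (0 is the median of the 6 arrays) of 8 SWI/SNF subunits, PCGF1-shRNA arrays in red on the left and NC arrays in grey on the right of each panel, with the mean and SD of 3 arrays beside the points. ARID2 and PBRM1 of PBAF lie lower in every PCGF1-shRNA array, ARID1A lies higher, and the core subunits overlap.

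CHD remodelers had the highest median of the 7 classes, 0.18 over 5 genes, of which 2 rose and 0 fell. Over all genes 6.36% were called higher and 4.63% lower. In the wider list described below, 15 genes of this class had a median of 0.02, and of these 1 rose and 0 fell. CHD3 is an ATPase of the NuRD complex, which joins remodeling to histone deacetylation. It had 0.12, 0.06 and 0.13 in the PCGF1-shRNA arrays, against -0.08, -0.08 and -0.13 in the NC arrays. It rose by 0.20 on the log2 scale (SE 0.04, 95% interval 0.11 to 0.29, adjusted p = 0.0176 by limma), with all 5 probe sets higher, between 0.15 and 0.24. The call was lost without PCGF1-shRNA replicate 1 or 3 or NC replicate 2 or 3 (adjusted p 0.0530 to 0.0678). CHD7, the remodeler mutated in CHARGE syndrome, had 0.15, 0.05 and 0.06 in the PCGF1-shRNA arrays, against -0.15, -0.08 and -0.07 in the NC arrays. It rose by 0.18 (SE 0.05, adjusted p = 0.0422 by limma), with its 4 probe sets between 0.03 and 0.29, and the call was lost without any 1 array (adjusted p 0.0655 to 0.118).

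Among the other CHD genes the values went both ways. CHD8, a chromodomain remodeler linked to autism, had 0.09, 0.08 and 0.04 in the PCGF1-shRNA arrays, against -0.04, -0.22 and -0.11 in the NC arrays. The groups did not overlap, but the log2 fold change of 0.19 from 1 probe set did not pass (adjusted p = 0.0589 by limma). CHD4, the second NuRD ATPase, had a log2 fold change of 0.09 with overlapping groups (adjusted p = 0.246). CHD1, which acts in transcribed genes, was the only one of the 5 with a negative value, with -0.09, 0.01 and -0.07 in the PCGF1-shRNA arrays, against -0.01, 0.08 and 0.17 in the NC arrays (log2 fold change -0.13, adjusted p = 0.195 by limma).

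In the DNA methylation class 1 of 6 genes rose and 0 fell, where 6.36% of all genes were called higher and 4.63% lower. The gene that rose encodes an oxidising enzyme. The 7 measured genes of this class in the wider list described below had 0 calls and a median of -0.03, with 2 positive and 5 negative. TET enzymes convert 5-methylcytosine to 5-hydroxymethylcytosine. TET2 had 0.16, -0.01 and 0.16 in the PCGF1-shRNA arrays, against -0.18, -0.08 and -0.14 in the NC arrays. PCGF1-shRNA replicate 2 was the lowest of its group and still above every NC array. TET2 rose by 0.23 on the log2 scale (SE 0.06, 95% interval 0.10 to 0.37, adjusted p = 0.0392 by limma), or 1.18-fold. Its 2 probe sets differed in size, one at 0.44 and the other at 0.03. The call was lost without each array except PCGF1-shRNA replicate 2 (adjusted p 0.0633 to 0.120).

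The other TET genes had positive values that did not pass. TET1 had 0.10, 0.04 and 0.07 in the PCGF1-shRNA arrays, against -0.31, -0.04 and -0.02 in the NC arrays, with NC replicate 1 far below the rest (log2 fold change 0.19, adjusted p = 0.153 by limma). TET3 had 0.07, 0.02 and 0.11 in the PCGF1-shRNA arrays, against -0.06, -0.05 and -0.04 in the NC arrays (log2 fold change 0.12, adjusted p = 0.104 by limma), although its 2 probe sets had opposite signs. All 3 TET genes were thus higher without overlap between the groups, where 17.1% of all genes lay higher without overlap. The methyltransferase genes overlapped, with log2 fold changes of -0.05 for the maintenance enzyme DNMT1, 0.04 for the de novo enzyme DNMT3A and 0.02 for its relative DNMT3B (adjusted p 0.503 to 0.764 by limma).

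**Figure D3:**
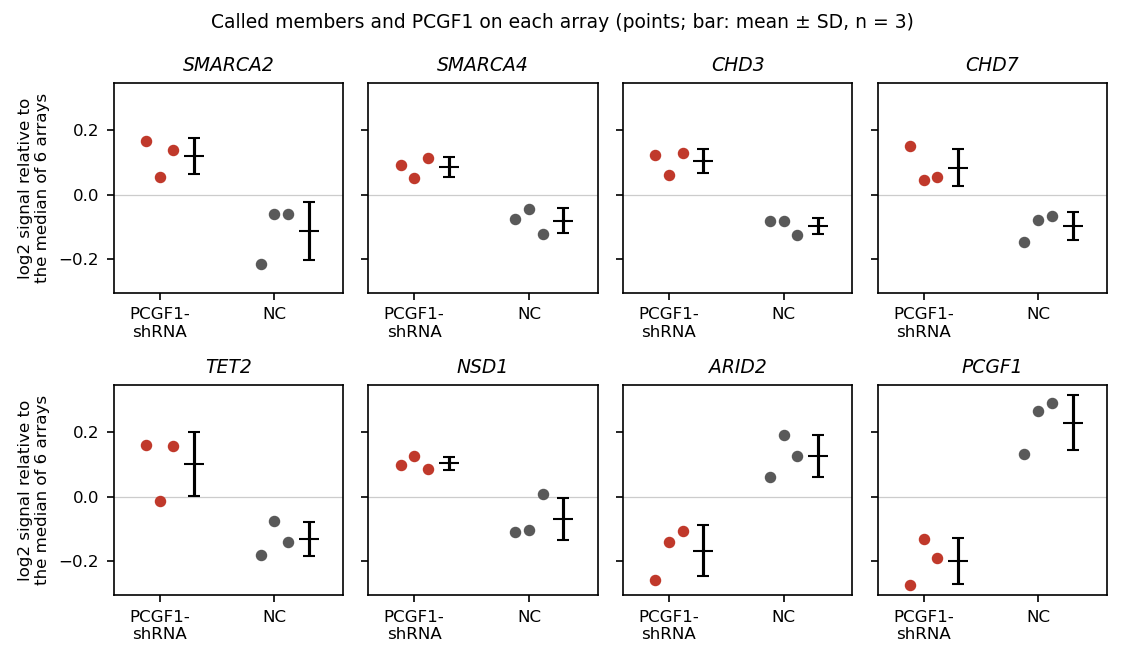
Relative log2 signal (0 is the median of the 6 arrays) of the 7 called chromatin genes and for PCGF1, PCGF1-shRNA arrays in red on the left and NC arrays in grey on the right of each panel, with the mean and SD of 3 arrays beside the points. The groups do not overlap in any panel, and the smallest gaps are those of TET2 and NSD1.

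Among 15 histone methyltransferases 1 rose and 0 fell, and the class median was 0.04. The share called was 6.67%, against 11.0% of all genes. Of 19 measured genes of this class in the wider list described below, 1 rose and 1 fell. Their median was -0.03, with 7 positive and 12 negative. NSD1, which dimethylates histone H3 lysine 36, had 0.10, 0.13 and 0.09 in the PCGF1-shRNA arrays, against -0.11, -0.10 and 0.01 in the NC arrays. It rose by 0.17 on the log2 scale (SE 0.04, 95% interval 0.07 to 0.27, adjusted p = 0.0467 by limma). Its 8 probe sets ran between -0.01 and 0.43, and the call was lost without each array except NC replicate 3 (adjusted p 0.106 to 0.137). It was also lost after quantile normalization (adjusted p = 0.05005) and with array weights (adjusted p = 0.0591). SETD2, the lysine 36 trimethylase, overlapped between the groups at -0.03.

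Enzymes for lysine 4 of histone H3 had mostly positive log2 fold changes, 5 of 6, where 46.6% of all genes were positive. None of these 6 passed by limma, and 2 had an unadjusted p under 0.05, as did 26.6% of all genes. KMT2C, which marks enhancers, came closest, at 0.16 (adjusted p = 0.0501), with all 5 probe sets higher and no overlap between the groups. SETD1B, a promoter H3K4 trimethylase, had 0.22, 0.06 and 0.05 in the PCGF1-shRNA arrays, against -0.05, -0.07 and -0.05 in the NC arrays (log2 fold change 0.17 from 1 probe set, adjusted p = 0.0874). KMT2A, KMT2B, KMT2D and SETD1A lay between -0.04 and 0.05 with overlapping groups. KMT2E, a member of the family by sequence for which methyltransferase activity is in doubt, had a log2 fold change of 0.16 (adjusted p = 0.0594), with all 9 probe sets higher. 1 of these, at 0.38, passed the test as a single probe set (adjusted p = 0.0124 by limma over 49293 probe sets).

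The enzymes of H3 lysine 9, a mark of silent chromatin, did not move as a group. EHMT2 (G9a), which dimethylates lysine 9, had 0.18, 0.02 and 0.22 in the PCGF1-shRNA arrays, against -0.06, -0.08 and -0.02 in the NC arrays (log2 fold change 0.19 from 1 probe set, adjusted p = 0.0689 by limma). Without PCGF1-shRNA replicate 2 its log2 fold change was 0.25 and passed (adjusted p = 0.0224). The heterochromatin trimethylases SUV39H1 and SUV39H2 had the lowest values of the class. SUV39H1 had -0.08, -0.04 and -0.05 in the PCGF1-shRNA arrays, against 0.10, 0.04 and 0.04 in the NC arrays (log2 fold change -0.12, adjusted p = 0.0939). SUV39H2 had -0.07, -0.05 and -0.01 in the PCGF1-shRNA arrays, against 0.08, 0.07 and 0.08 in the NC arrays (log2 fold change -0.12, adjusted p = 0.0715). In both genes the groups did not overlap and every probe set was lower, 7 probe sets in all. EHMT1, the partner of EHMT2, SETDB1, which silences retroelements, and the lysine 79 methyltransferase DOT1L lay between -0.03 and 0.04 with overlapping groups.

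Of 9 histone demethylases 0 were called by limma, where 3 had an unadjusted p under 0.05, and the class median was -0.02. Over all genes 11.0% were called and 26.6% had an unadjusted p under 0.05. KDM5B, a demethylase of H3 lysine 4, had 0.12, 0.03 and 0.05 in the PCGF1-shRNA arrays, against -0.19, -0.04 and -0.05 in the NC arrays (log2 fold change 0.16, adjusted p = 0.0899). KDM4A, which acts on lysines 9 and 36, had 0.04, 0.07 and 0.10 in the PCGF1-shRNA arrays, against -0.06, -0.06 and -0.07 in the NC arrays (log2 fold change 0.13, adjusted p = 0.0647). KDM5A, another lysine 4 demethylase, followed at 0.10 (adjusted p = 0.119), and the groups did not overlap in these 3 genes. KDM2A, a CXXC protein related to the PRC1.1 subunit KDM2B, had the lowest value of the class at -0.08 (adjusted p = 0.223), also without overlap. The flavin-dependent KDM1A (LSD1) and KDM1B lay at -0.03 each (KDM1A without overlap), KDM4B at -0.02, KDM4C at 0.12 and the X-linked KDM5C at -0.06 (adjusted p 0.303 to 0.884). In this class 3 genes lay higher and 2 lower without overlap, where 17.1% of all genes lay higher and 15.5% lower.

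The 7 histone deacetylases had a median of 0.01 and no log2 fold change beyond 0.11 in size, and 0 were called by limma at the adjusted or at an unadjusted p under 0.05. Of all genes 11.0% passed at the adjusted and 26.6% at the unadjusted p. HDAC9, a class II enzyme, had -0.14, -0.14 and 0.02 in the PCGF1-shRNA arrays, against 0.06, -0.08 and 0.09 in the NC arrays, and the groups overlapped (log2 fold change -0.11, adjusted p = 0.292). HDAC7, of the same class, had -0.01, 0.08 and 0.03 in the PCGF1-shRNA arrays, against -0.01, -0.12 and -0.06 in the NC arrays (log2 fold change 0.10, adjusted p = 0.211), the lowest of the first nearly meeting the highest of the second. One of its 6 probe sets, at 0.24, passed as a single probe set (adjusted p = 0.0340 by limma) while others were near or below 0. HDAC3 and HDAC8, of class I, HDAC4, HDAC5 and the tubulin deacetylase HDAC6 lay between -0.02 and 0.08 with overlapping groups.

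The 4 histone acetyltransferases all had positive log2 fold changes and 0 were called by limma, where 1 had an unadjusted p under 0.05. Of all genes 46.6% were positive, 11.0% were called and 26.6% had an unadjusted p under 0.05. The wider list described below had 9 measured genes of this class, 6 positive and 3 negative, and HAT1 among them fell by 0.32. KAT2A (GCN5), the acetyltransferase of the SAGA coactivator, had 0.13, 0.01 and 0.06 in the PCGF1-shRNA arrays, against -0.06, -0.01 and -0.12 in the NC arrays (log2 fold change 0.13, adjusted p = 0.119). EP300 (p300), an enhancer coactivator, had 0.21, -0.03 and 0.10 in the PCGF1-shRNA arrays, against -0.06, 0.01 and -0.01 in the NC arrays, and the groups overlapped (log2 fold change 0.11, adjusted p = 0.290). Its paralog CREBBP was at 0.10 and KAT2B, the paralog of KAT2A, at 0.01. In all 4 genes PCGF1-shRNA replicate 2 was the lowest array of its group.

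Probe sets of the same gene often differed. Of the 48 genes with several probe sets, 12 had all of them higher, 6 had all of them lower and 30 had both signs. The called genes SMARCA2, SMARCA4, CHD3, CHD7, TET2 and ARID2 were among those with 1 sign, and NSD1 had 7 probe sets higher and 1 lower. Tested singly, 8 of the 219 probe sets were called higher and 3 lower by limma. Of all 49293 probe sets 7.24% were called, 4.30% as higher and 2.94% as lower. They belonged to SMARCA2, CHD7, NSD1, TET2, KMT2E, CREBBP and HDAC7 among those higher and to ARID2 and PBRM1 among those lower. CHD3 and SMARCA4 had no called probe set of their own, and their calls rest on the average over probe sets of 1 sign. With only the most variable probe set of a gene in use, the calls of SMARCA2, SMARCA4, ARID2, CHD3 and CHD7 were lost (adjusted p 0.0771, 0.0852, 0.121, 0.166 and 0.460, in that order). Leaving out the _s_at and _x_at probe sets, which can match several transcripts, ended the calls of SMARCA2, CHD7 and NSD1 (adjusted p 0.0675, 0.107 and 0.144).

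**Figure D4:**
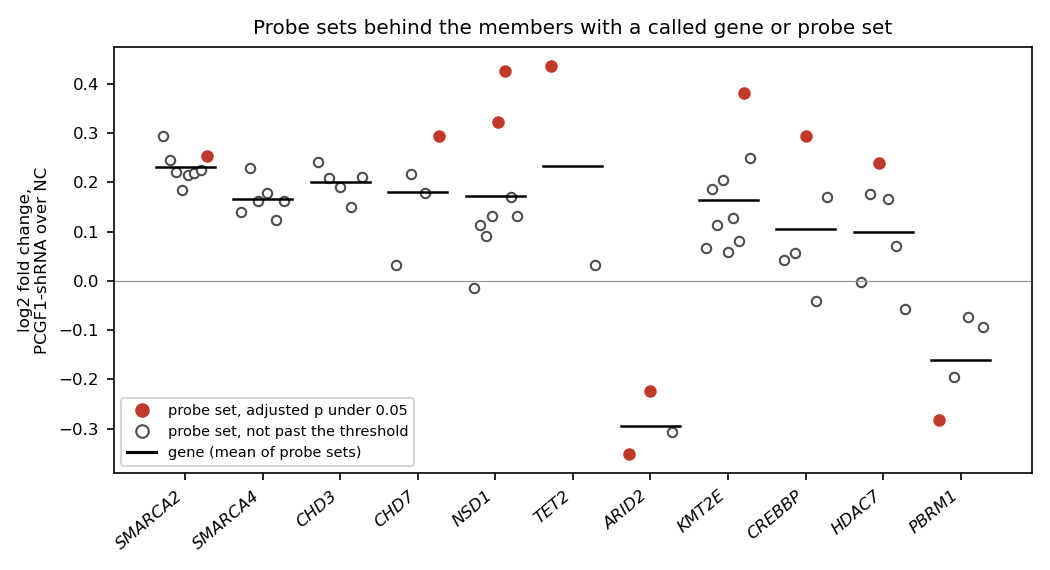
Log2 fold change, PCGF1-shRNA over NC, of each probe set (points) of the 11 genes with a called gene or a called probe set, with the gene's value as a black bar. Filled points passed an adjusted p under 0.05 over 49293 probe sets. SMARCA2, SMARCA4 and CHD3 have closely spaced probe sets, while those of NSD1, TET2, CREBBP, KMT2E and HDAC7 are spread widely.

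A wider list of 92 genes of the same classes, subunits of their complexes included, was examined beside these 57. Of these 87 were measured, 3 rose and 4 fell, which is 8.05% against 11.0% of all genes, with a median of 0.01. KDM3A, a lysine 9 demethylase, rose by 0.27 on the log2 scale (adjusted p = 0.00484 by limma), CHD9 by 0.22 (adjusted p = 0.0152) and the lysine 20 methyltransferase KMT5B by 0.19 (adjusted p = 0.0248). HAT1, which acetylates newly made histone H4, fell by 0.32 (adjusted p = 0.00760). ASH2L, a core subunit shared by the lysine 4 methyltransferase complexes, fell by 0.29 (adjusted p = 0.00760), JMJD1C, a relative of KDM3A, by 0.22 (adjusted p = 0.0116), and ACTL6A, an actin-like subunit of SWI/SNF and other remodelers, by 0.20 (adjusted p = 0.0156). The PBAF subunit genes PHF10 and BRD7 had log2 fold changes of 0.14 and 0.02 that did not pass (limma, adjusted p 0.169 and 0.881), neither sharing the sign of ARID2. PHF10 lay higher in the PCGF1-shRNA arrays without overlap between the groups, while BRD7 overlapped.

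PRC1.1 is recruited through CpG-rich DNA, so the promoters of the chromatin genes were examined for it. RefSeq sequences of build GRCh38.p14 were matched by symbol for 50 of the 57 genes, and SETD1B, DOT1L, HDAC5, SMARCC1, SMARCC2, ARID2 and CHD7 had none. The 250 bases before the farthest upstream start of each gene held between 3 and 48 CG dinucleotides, with a median of 23, where the promoters of all 14425 matched genes had a median of 18. The dinucleotide CG, which reads the same on both strands, was present in 97.0% of all of them. Among the called genes the count was 44 in SMARCA4, 29 in SMARCA2, 10 in TET2, 9 in CHD3 and 7 in NSD1, so the risers were spread from low to high counts. GGGCGG, read on both strands and itself holding a CG, was found in 60% of the 50 promoters and in 57.0% of all. CACGTG, a palindrome that also holds a CG, was found in 10 of the 50, or 20%, and in 7.79% of all, and CCAAT on either strand in 16% and 34.6%. These are counts of letters in 1 window per gene, and several genes have further starts.

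The promoters of both SWI/SNF ATPase genes, which rose together, and of TET2, which had the largest rise of the 57, are printed with every CG in capitals to show this range. They are the plus-strand bases chr9:2015097-2015346 for SMARCA2, chr19:10960780-10961029 for SMARCA4 and chr4:105145625-105145874 for TET2, 5′ to 3′.
SMARCA2: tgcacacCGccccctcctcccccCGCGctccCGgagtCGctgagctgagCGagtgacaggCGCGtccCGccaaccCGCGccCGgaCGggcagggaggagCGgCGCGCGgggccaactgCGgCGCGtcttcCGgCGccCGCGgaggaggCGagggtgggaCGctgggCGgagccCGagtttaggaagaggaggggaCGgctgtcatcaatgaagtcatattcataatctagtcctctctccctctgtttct
SMARCA4: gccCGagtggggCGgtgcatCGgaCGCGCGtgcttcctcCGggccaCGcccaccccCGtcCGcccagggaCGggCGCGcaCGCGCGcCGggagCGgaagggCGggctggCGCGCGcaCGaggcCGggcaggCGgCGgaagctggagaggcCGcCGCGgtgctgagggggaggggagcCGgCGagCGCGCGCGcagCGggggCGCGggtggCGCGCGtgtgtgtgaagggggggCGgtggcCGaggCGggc
TET2: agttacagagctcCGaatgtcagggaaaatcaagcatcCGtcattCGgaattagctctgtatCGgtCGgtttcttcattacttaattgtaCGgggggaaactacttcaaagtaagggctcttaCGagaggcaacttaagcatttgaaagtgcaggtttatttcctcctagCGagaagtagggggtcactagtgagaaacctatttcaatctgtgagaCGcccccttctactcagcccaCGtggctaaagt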

How the data were processed

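Per the labels' protocols, total RNA isolated with Trizol was biotin-labelled as cRNA and hybridised to Affymetrix arrays, 3 per group. The authors deposited log2 values of every probe set on every array, made with RMA according to the submitters' processing notes (no version given). The deposited log2 values are centred, with the median of the 6 arrays at 0 for every probe set, a step that no source describes. The log base is taken from RMA. The table does not record it.

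After 102 control probe sets were left out, 49293 were kept, 44988 of them with 1 gene symbol in GEO's platform table. All 57 symbols are current in RefSeq. Probe sets were averaged per gene, giving 18132 genes. No filter on low values was applied, since centred values carry no brightness. PCGF1-shRNA was compared with NC by limma 3.58.1 in R 4.3.3 (lmFit, eBayes, two-sided), with Benjamini-Hochberg adjustment over all genes and a threshold of 0.05. The script was tested on simulated data. The number of arrays limits the precision.

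The genes, classes, wider list and contrasts were chosen with earlier results of these data known. Values on each array are given for PCGF1, the called genes and up to 2 further genes per class by size of change, and others were chosen after their values were seen. In the wider list up to 2 risen and 2 fallen genes per class are named. The other 5 genes of the wider list were not analysed here. Alternatives were another normalization, array weights, a replicate block, other choices of probe sets, a robust variance model and leaving out each array.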

Additional observations from a re-analysis of the deposited data

How the results depend on the processing

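PCGF1 stayed lower and called under every alternative, and no call of a chromatin gene changed sign. The number of the 57 genes called higher, 6 with all arrays and averaged probe sets, was 3 once _s_at and _x_at probe sets were dropped and lay between 0 and 5 when 1 array was left out, although 14 to 19 genes had a positive value with an unadjusted p under 0.05 in those fits. Over all genes the share called fell as well, to between 5.40% and 7.73%, with fewer arrays. The 1 gene called lower, ARID2, became 0 when each gene was read from its most variable probe set, 2 with single probe sets, and 0 to 1 when 1 array was left out. In the wider list 3 higher and 4 lower genes became 1 to 3 higher and 3 to 4 lower without 1 array, and 2 lower with the most variable probe sets. With the replicate number as a block (limma), 0 of the 57 genes were called higher, 16 having a positive value with an unadjusted p under 0.05, and 1 of the wider list was called higher. The block left 1036 genes called in all. The labels do not say whether the numbers pair the samples. Deviations of same-numbered arrays from their group means correlated at -0.04, -0.05 and 0.01. Only 2 of the 6 arrays correlated best with their own number. With 3 arrays per group these values show no pairing but cannot exclude one. Of the alternative values of single chromatin genes, 694 kept their side of the threshold, 48 lost a call and 6 gained one, the cause not being tested. Most of these values belong to genes that were not called and so had no call to lose. Of 13 alternatives for each called gene, ARID2 passed in 11, CHD3 and TET2 in 7 each. SMARCA2 and SMARCA4 passed in 5 each, and NSD1 and CHD7 in 4 each. All 6 risers kept their sign in every alternative that gave them a gene value. The authors' centring leaves signal over background unknown.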
